A study of Homo sapiens with 6 samples.

Results

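The aldehyde dehydrogenases are a superfamily of enzymes, most of which oxidise aldehydes to carboxylic acids, and 10 of its genes were followed by symbol (ALDH1A1, ALDH1A3, ALDH1B1, ALDH2, ALDH3A1, ALDH3A2, ALDH3B1, ALDH7A1, ALDH9A1 and ALDH18A1) among the 27216 rows of the deposited expression table. All 10 have a row. The study sequenced RNA from the human lung cancer line H1975, a non-small cell line that carries mutant EGFR, as 3 parental samples (Osi for 0 h) and 3 adapted samples (Osi for 72 h), to look for what lies behind the high oxidative phosphorylation of adapted cells. Osi (osimertinib) is a tyrosine kinase inhibitor of mutant EGFR, the labels give 1000 nM for both groups, and the genotype of all 6 samples is given as wild type, with no other allele or agent. All samples came from 1 cell line in culture, and the adapted samples are the cells left once apoptotic cells had been washed away. The columns of the parental samples are named for DMSO, the solvent, and how long those cells were kept in it is not given, so 72 h of Osi and 72 h of culture cannot be told apart. The labels also describe a digestion of linear RNA with RNase R before library construction, a step used for circular RNA, while the study's methods name total RNA without it. The levels below are those of the table whichever was done. No label says that the 3 samples of a group came from separate cultures, so p-values measure the spread between these samples, which may be technical.

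Values are log2(FPKM + 1), where FPKM (fragments per length of transcript and size of library) is the unit the values are taken to be in, so levels can be compared between genes as well as between samples. A log2 difference is the adapted mean minus the parental mean on this scale. The read depth behind the values is unknown, and the spread over 3 samples is the only error given. On the linear scale the columns added up to 375342 at the lowest and 387753 at the highest. Adapted replicate 1 stood apart from the other two adapted samples, with a correlation across all rows of 0.991 with each against 0.996 between them, while the parental samples correlated at 0.997 (genes are not independent replicates). In these samples fewer cells of a kind and less RNA per cell cannot be told apart.

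Most members oxidise an aldehyde with NAD or NADP as the electron acceptor, each with its own aldehydes and compartment, while ALDH18A1 works the other way and makes a semialdehyde from glutamate by reduction. ALDH1A1 and ALDH1A3 make retinoic acid from retinaldehyde and carry much of the aldehyde dehydrogenase activity used to sort stem-like tumour cells. ALDH2 and ALDH1B1 are mitochondrial and oxidise acetaldehyde, ALDH3A1, ALDH3A2 and ALDH3B1 act on fatty and lipid-derived aldehydes, and ALDH7A1, ALDH9A1 and ALDH18A1 belong to lysine, carnitine and proline metabolism. High aldehyde dehydrogenase activity has long been described in lung cancer cells that tolerate drugs.

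Some members rose in adapted cells and others fell. Of the 8 members tested, 4 were higher (ALDH3B1, ALDH1A3, ALDH3A2 and ALDH1B1) and 3 were lower (ALDH2, ALDH18A1 and ALDH9A1) past the threshold (limma fitted on 12656 rows, Benjamini-Hochberg adjusted p under 0.05), and ALDH7A1 was not past it. Of all rows tested, 56.9% were past the threshold, 30.7% higher and 26.2% lower, so a call by itself was the more frequent outcome in this comparison. The median log2 difference of the 8 genes was 0.44, beside 0.03 over all rows tested. In 7 of the 8 the values of the groups did not overlap, as in 66.3% of all rows tested. ALDH1A1 averaged under the filter of 1 on the log2 scale and ALDH3A1 was listed at 0 in every sample, so neither was tested. With 3 samples against 3, a two-sided exact permutation test of any single gene cannot give a p under 0.1, and it gave 0.1 for each of the 7 genes without overlap. The plot of levels by sample shows all 10 genes, and that of fold changes shows the order of the changes.

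**Figure D1:**
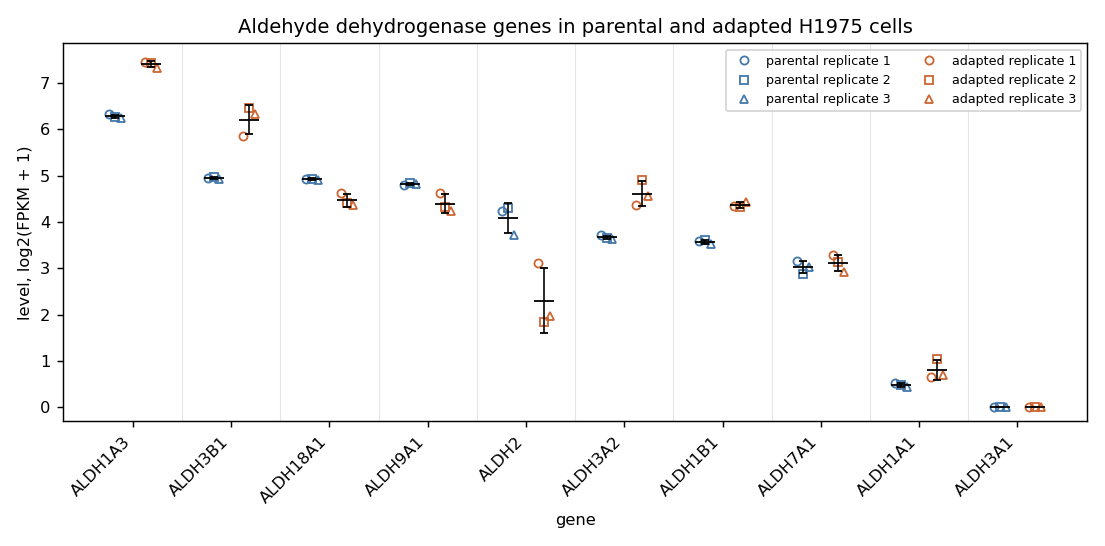
Level of each of the 10 genes, as log2(FPKM + 1), in the 3 parental (blue) and 3 adapted (orange) samples. Marker shapes give the replicate, and black bars the mean ± SD (n = 3). The 3 adapted values of ALDH1A3 lie between 7.33 and 7.46, above the parental values of 6.24 to 6.32, and ALDH2 falls from between 3.73 and 4.31 to between 1.84 and 3.11.

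Of the enzymes that make retinoic acid, only ALDH1A3 was expressed at a high level. Its log2(FPKM + 1) was 6.32, 6.28 and 6.24 in the parental samples and 7.46, 7.44 and 7.33 in the adapted samples. The groups were far apart and the replicates close together. The log2 difference was 1.13 (SE 0.06, adjusted p = 1.43e-05 by limma), from 76.8 ± 2.04 to 169 ± 8.42 FPKM (SD, n = 3 each), a ratio of mean FPKM of 2.2. ALDH1A3 lies at chr15:100877714-100916626 on the plus strand (GENCODE v29, GRCh38), and 1585 of its 5772 annotated exon bases are also exon of an antisense gene, AC015712.2. Whether the authors' counting used strand is not given. ALDH1A1, the other retinaldehyde dehydrogenase among the 10, had values of 0.53, 0.48 and 0.44 in parental and 0.66, 1.05 and 0.71 in adapted cells. All adapted values were above the parental ones, at low levels. When no filter was used, its log2 difference of 0.32 was not past the threshold (limma, adjusted p = 0.0706). The FPKM of ALDH1A3 was between 162 and 301 times that of ALDH1A1 in every sample.

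The largest rise among the members was that of ALDH3B1, an enzyme anchored in membranes that oxidises medium and long chain aldehydes from lipid peroxidation. Its values were 4.94, 4.97 and 4.92 in parental and 5.85, 6.46 and 6.33 in adapted cells, without overlap. ALDH3B1 lies at chr11:68008578-68029282 on the plus strand. The log2 difference was 1.27 (SE 0.15, adjusted p = 3.18e-04 by limma), and the mean FPKM went from 29.8 ± 0.53 to 74.2 ± 15.6 (SD, n = 3 each). ALDH3B2, a close paralog of it, was not past the threshold (log2 fold change -0.19, 95% interval -0.50 to 0.13, limma, adjusted p = 0.265), and was at about 1 FPKM in both groups. ALDH3A2, the fatty aldehyde dehydrogenase of the endoplasmic reticulum whose loss causes Sjögren-Larsson syndrome, also rose. It measured 3.71, 3.65 and 3.64 in parental and 4.37, 4.90 and 4.56 in adapted cells, so that every adapted value was higher. ALDH3A2 lies at chr17:19648136-19677598 on the plus strand. Its log2 difference was 0.94 (SE 0.13, adjusted p = 7.09e-04 by limma). ALDH3A1, an inducible enzyme of cornea and stomach that is high in many lung tumours, was listed at 0 in all 6 samples.

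The mitochondrial acetaldehyde dehydrogenases moved in opposite directions. ALDH2, the main enzyme that clears acetaldehyde after alcohol intake, had values of 4.24, 4.31 and 3.73 in parental and 3.11, 1.84 and 1.97 in adapted cells. Every adapted value was lower, with adapted replicate 1 closest to the parental samples, and ALDH2 had the widest spread of the 10 genes on the log2 scale in both groups. Its log2 difference was -1.79 (SE 0.33, adjusted p = 0.00314 by limma), from 16.3 ± 3.57 to 4.36 ± 2.82 FPKM (SD, n = 3 each). ALDH2 lies at chr12:111766887-111817529 on the plus strand, and 680 of its 9720 annotated exon bases are shared with AC002996.1, whose own values were at most 0.16 in any sample. ALDH1B1, its mitochondrial paralog at chr9:38392664-38398661 (plus strand), rose instead. It measured 3.59, 3.61 and 3.53 in parental and 4.34, 4.33 and 4.43 in adapted cells, a tight separation, with a log2 difference of 0.79 (SE 0.06, adjusted p = 5.82e-05 by limma). The ratio of ALDH1B1 to ALDH2 in FPKM was 0.61, 0.60 and 0.86 in the parental samples and 2.53, 7.45 and 7.09 in the adapted samples. ALDH2 was thus the higher of the pair in each parental sample and ALDH1B1 in each adapted sample. The pair was picked after its values were seen, and the ratio was not tested.

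The members of amino acid and carnitine metabolism fell or were not past the threshold. ALDH18A1, at chr10:95605929-95656706 on the minus strand, encodes the enzyme that opens proline and ornithine synthesis from glutamate. Its values were 4.93, 4.94 and 4.90 in parental and 4.63, 4.41 and 4.36 in adapted cells, all lower, with a log2 difference of -0.46 (SE 0.08, adjusted p = 0.00234 by limma). ALDH9A1, at chr1:165662216-165698863 on the minus strand, takes part in carnitine synthesis and oxidises aldehydes of amines. It measured 4.79, 4.84 and 4.81 in parental and 4.62, 4.32 and 4.25 in adapted cells, also without overlap, with a log2 difference of -0.42 (SE 0.10, adjusted p = 0.00934 by limma). Both falls were small in mean FPKM, to 0.722 and 0.745 of the parental level. ALDH7A1, of lysine breakdown and at chr5:126531200-126595418 on the minus strand, had overlapping groups, with 3.15, 2.89 and 3.03 in parental and 3.29, 3.14 and 2.92 in adapted cells. Its log2 difference was 0.09 (95% interval -0.17 to 0.36, limma, adjusted p = 0.503). ALDH7A1 has 4 processed pseudogenes in GENCODE v29, and how reads shared with them were assigned is not given.

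**Figure D2:**
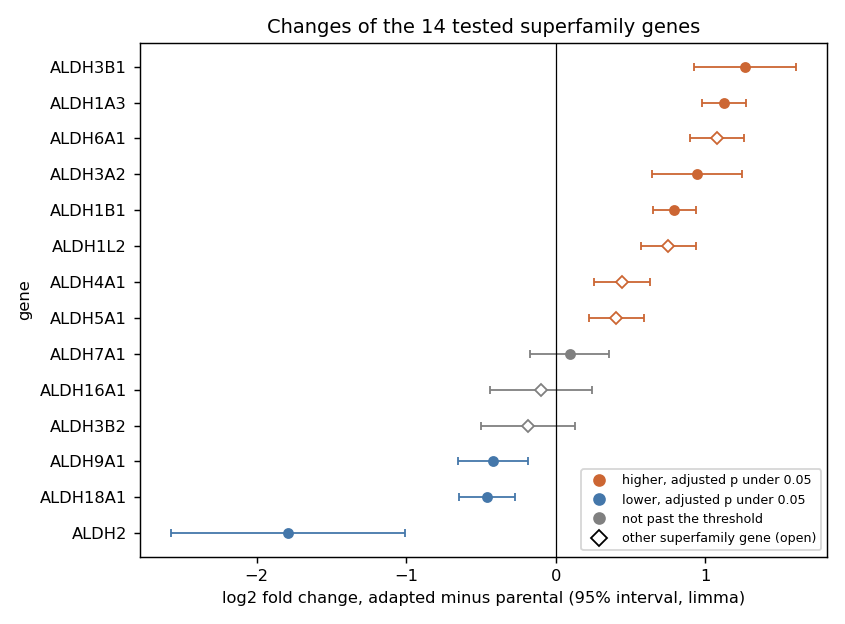
Log2 fold change on the log2(FPKM + 1) scale, adapted minus parental, with its 95% interval from limma, for the 14 superfamily genes tested. Filled circles are 8 of the 10 genes followed here and open diamonds 6 of the other 9 genes of the superfamily. Orange is higher, blue lower and grey not past the threshold, from ALDH3B1 at 1.27 down to ALDH2 at -1.79.

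Adapted replicate 1 was the adapted sample closest to the parental mean in 5 of the 7 changed members (ALDH2, ALDH3A2, ALDH3B1, ALDH9A1 and ALDH18A1), while over all rows past the threshold adapted replicate 1 was closest in 54.8%. Without that sample the log2 fold changes were 1.45 for ALDH3B1, 1.10 for ALDH1A3, 1.06 for ALDH3A2 and 0.81 for ALDH1B1. They were -2.19 for ALDH2, -0.54 for ALDH18A1 and -0.53 for ALDH9A1, and all 7 were past the threshold (limma, adjusted p of at most 1.04e-04). None of the 10 genes has values off the 6-decimal grid of the table, a property that marks 147 rows in which the 3 values of 1 group carry an added constant.

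The order of the levels changed between the groups. In parental cells it ran from ALDH1A3 through ALDH3B1, ALDH18A1, ALDH9A1, ALDH2, ALDH3A2, ALDH1B1 and ALDH7A1 to ALDH1A1 and ALDH3A1, and of these neighbours only ALDH3B1 and ALDH18A1 had overlapping ranges over the 3 samples. In adapted cells ALDH1A3 and ALDH3B1 kept ranks 1 and 2. ALDH3A2, ALDH18A1, ALDH9A1 and ALDH1B1 followed with each overlapping the next, at means of 4.61, 4.47, 4.40 and 4.37. ALDH7A1 and ALDH2 came after them, also overlapping, and ALDH2 had gone from rank 5 to rank 8. The plot of summed FPKM shows these levels together. The FPKM of the 10 genes summed to 210 ± 6.64 in the parental group and 341 ± 15.1 in the adapted one (SD, n = 3 each), with every adapted sum above every parental one. ALDH1A3 made up 36.6% ± 0.55 of this sum before and 49.6% ± 2.31 after 72 h, and ALDH3B1 14.2% ± 0.30 and 21.7% ± 4.15. The share of ALDH2 went from 7.76% ± 1.49 to 1.29% ± 0.85. Leaving out ALDH1A3, the other 9 genes summed to 133 ± 4.93 and 172 ± 12.9 FPKM. These sums and shares are descriptions and were not tested.

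**Figure D3:**
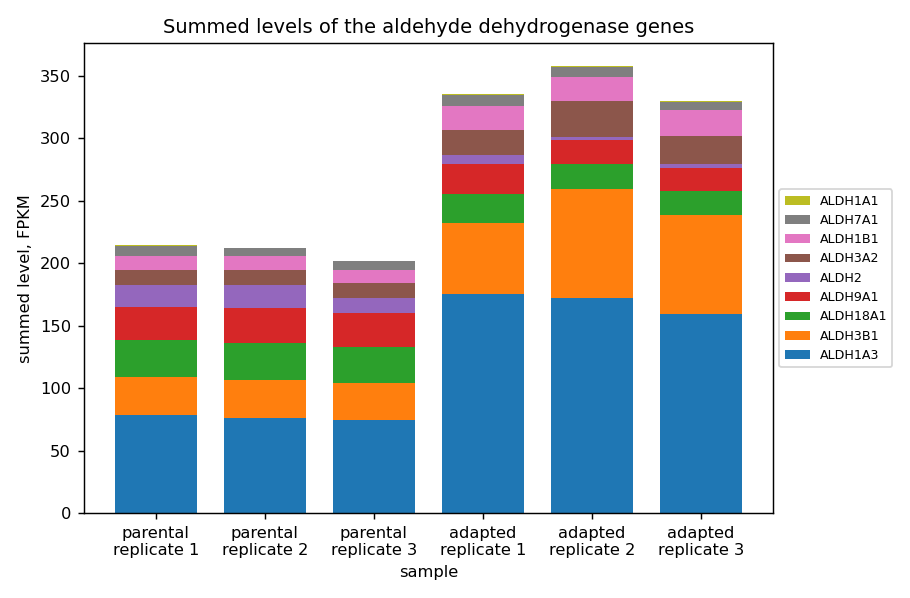
Summed FPKM of the genes in each of the 6 samples, one stacked bar per sample starting at 0, with one colour per gene (ALDH3A1 is listed at 0 and has no segment). The parental bars end between 202 and 214 and the adapted bars between 329 and 358, and the ALDH1A3 segment at the base is the largest in every bar.

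The bases before the transcription start were read for the members from RefSeq (GRCh38.p14), where 8 of the 10 matched with 10 start sites. The 250 bases before the start are shown for 3 genes that rose, picked because they carry the GC box GGGCGG bound by SP1-type factors, and for 1 that fell and does not, to let their make-up be compared. Capitals mark GGGCGG and the E-box CACGTG on either strand, and all other bases are in lower case.
ALDH1A3 (plus strand, chr15:100879581-100879830): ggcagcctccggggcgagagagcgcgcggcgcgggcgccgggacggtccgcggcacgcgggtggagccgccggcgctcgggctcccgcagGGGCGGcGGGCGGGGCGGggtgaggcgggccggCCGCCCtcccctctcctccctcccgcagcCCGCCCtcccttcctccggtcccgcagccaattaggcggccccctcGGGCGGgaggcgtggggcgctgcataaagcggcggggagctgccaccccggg
ALDH1B1 (plus strand, chr9:38392452-38392701): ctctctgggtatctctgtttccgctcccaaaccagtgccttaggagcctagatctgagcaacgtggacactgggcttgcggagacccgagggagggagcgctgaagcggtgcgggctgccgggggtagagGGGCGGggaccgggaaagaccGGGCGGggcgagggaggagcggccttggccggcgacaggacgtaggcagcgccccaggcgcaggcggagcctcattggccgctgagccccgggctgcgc
ALDH3A2, the second of its 2 start sites (plus strand, chr17:19648501-19648750): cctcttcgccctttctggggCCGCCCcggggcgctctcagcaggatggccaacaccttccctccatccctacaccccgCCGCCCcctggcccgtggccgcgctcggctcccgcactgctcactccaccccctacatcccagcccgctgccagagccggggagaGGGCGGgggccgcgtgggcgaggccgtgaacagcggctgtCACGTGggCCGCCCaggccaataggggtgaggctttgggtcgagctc
ALDH18A1 (minus strand, chr10:95656712-95656961): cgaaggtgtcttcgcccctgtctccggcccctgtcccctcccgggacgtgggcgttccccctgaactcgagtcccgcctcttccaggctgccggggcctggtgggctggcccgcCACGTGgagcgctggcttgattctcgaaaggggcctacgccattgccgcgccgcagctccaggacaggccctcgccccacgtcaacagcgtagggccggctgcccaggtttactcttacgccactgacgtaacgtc

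In these windows GGGCGG was found 6 times for ALDH1A3, of which 2 share a base, 2 times for ALDH1B1 and 4 times for this start of ALDH3A2, and not for ALDH18A1. Of the 10 windows of the members, 6 held GGGCGG, against 42.6% of all 35116 promoter windows of this length. Among the 6 were the windows of ALDH7A1, which was not past the threshold, and of ALDH9A1, which fell. CACGTG was in 2 of 10 windows (ALDH3A2 and ALDH18A1) and in 6.34% of all. CCAAT, bound by NF-Y, was in 5 of 10 windows and in 32% of all, and the core GCGTG bound by the aryl hydrocarbon receptor was in 2 of 10 and in 32.2% of all. The letters of a TATA box (TATAAA), an AP-1 site (TGACTCA), a nuclear receptor half-site (AGGTCA) and a TEAD site (GGAATG) were in none of the 10 windows, and in 10.7%, 4.2%, 12.1% and 11.9% of all. Every motif was searched on both strands, with overlaps between motifs allowed. GC content was 82.4% for ALDH1A3, 70.4% for ALDH1B1, 73.2% for the start of ALDH3A2 shown and 68.8% for ALDH18A1, with a median of 58% over all windows. The window of the other ALDH3A2 start had 55.6% GC and no GGGCGG. The start site used for ALDH1A3 lies 2117 bases inside the GENCODE v29 gene, and that of ALDH1A1 lies 127389 bases inside. The second start of ALDH3B1 lies 1749 bases inside its gene and the ALDH3A2 start shown 615 bases. These matches are letters in a sequence, and no binding was measured here.

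The human superfamily has 9 further genes, of which 6 were tested. Of these, 4 rose and the other 2, ALDH3B2 and ALDH16A1, were not past the threshold. The 4 that rose are mitochondrial enzymes. ALDH6A1, of valine and thymine breakdown, went from 1.90 ± 0.07 to 2.98 ± 0.07 (SD, n = 3 each), a log2 difference of 1.08 (limma, adjusted p = 3.96e-05). Its adapted values are among those with an added constant, and 670 of its 6680 exon bases are shared with BBOF1 on the opposite strand. With the constant subtracted the log2 difference was 0.42 (limma, adjusted p = 0.00336). ALDH1L2, which oxidises formyl-tetrahydrofolate in the folate cycle, went from 1.27 ± 0.07 to 2.02 ± 0.01, a log2 difference of 0.75 (limma, adjusted p = 2.04e-04). ALDH4A1, of proline breakdown, had a log2 difference of 0.44 (limma, adjusted p = 0.00264), and 1517 of its 3689 exon bases are shared with another gene, AL080251.1. ALDH5A1, of GABA breakdown, had one of 0.41 (limma, adjusted p = 0.00384). ALDH16A1 measured 3.13 ± 0.07 and 3.03 ± 0.30 (log2 fold change -0.10, 95% interval -0.44 to 0.24, limma, adjusted p = 0.589). ALDH1A2, ALDH1L1 and ALDH8A1 averaged under 0.2 in both groups and were not tested. Over the 19 genes, 8 were higher and 3 lower of 14 tested, beside 30.7% and 26.2% of all rows tested.

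The retinoid pathway around ALDH1A3 moved in both directions. Of 18 genes of retinoid uptake, conversion, binding, breakdown and response, 11 were tested, 3 were higher and 5 lower, beside 30.7% and 26.2% of all rows tested. Their median log2 difference was -0.18, beside 0.03 over all rows tested. The largest fall was that of CRABP2, the cytosolic protein that carries retinoic acid to its nuclear receptor. It had values of 8.30, 8.35 and 8.39 in parental and 4.01, 3.49 and 3.76 in adapted cells. The groups were more than 4 units apart, and the log2 difference was -4.60 (SE 0.12, adjusted p = 9.64e-07 by limma), to 0.0388 of the parental FPKM. STRA6, the receptor that takes up retinol from its plasma carrier, went from 3.64 ± 0.01 to 1.37 ± 0.03 (log2 fold change -2.28, limma, adjusted p = 1.15e-06). A further 3 genes that fell were named after their values were seen. RDH10, which makes the retinaldehyde that ALDH1A3 uses, changed by -0.78 (limma, adjusted p = 0.00677) and DHRS9, another retinol dehydrogenase, by -1.96 (limma, adjusted p = 1.47e-05). RARA, a retinoic acid receptor, changed by -0.52 (limma, adjusted p = 0.00232). The calls of RDH10, DHRS9 and RARA were not followed under the alternatives. DHRS3, which turns retinaldehyde back into retinol, rose by 0.32 (limma, adjusted p = 0.00157) and the receptor RARG by 0.29 (limma, adjusted p = 0.0118). RARG lost its call without parental replicate 1 (adjusted p = 0.0537). CYP26A1, which breaks down retinoic acid and is itself induced by it, measured 2.45, 2.52 and 2.36 in parental and 2.28, 2.78 and 2.60 in adapted cells. Its groups overlapped, with a 95% interval of the log2 fold change from -0.20 to 0.41 (limma, adjusted p = 0.501).

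**Figure D4:**
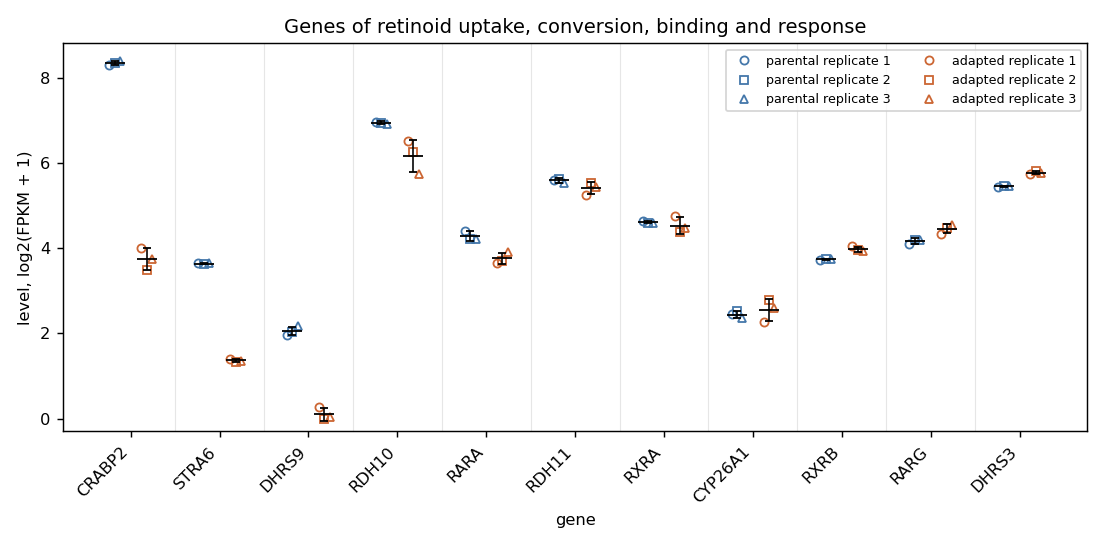
Level, as log2(FPKM + 1), of the 11 tested genes of the retinoid list in the 3 parental (blue) and 3 adapted (orange) samples, in the order of their change. Marker shapes give the replicate, and black bars the mean ± SD (n = 3). CRABP2 shows the widest gap, 8.35 against 3.75 on average, and RXRA, RDH11 and CYP26A1 are among those not past the threshold.

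Smaller lists of neighbouring reactions are given by their counts, beside the 56.9% past the threshold over all rows tested. Among 11 genes that make acetaldehyde or use acetate, 4 were tested and 1 rose, ACSS2, which turns acetate into acetyl-CoA (3.54 ± 0.02 to 4.35 ± 0.27, SD, n = 3 each, limma, adjusted p = 0.00132). ACSS1, its mitochondrial paralog, averaged under the filter and was not tested, with 0.24 ± 0.08 before and 1.66 ± 0.30 after 72 h (SD, n = 3) and no overlap, and was named after its values were seen. ADH5, the formaldehyde-clearing alcohol dehydrogenase, had a log2 difference of 0.19 (95% interval 0.02 to 0.35, limma, adjusted p = 0.0577). Among 8 genes of proline and ornithine metabolism, 6 were tested, 1 was higher and 1 lower. ODC1, which starts polyamine synthesis from ornithine, rose by 1.25 (limma, adjusted p = 5.04e-05). PRODH, which opens proline breakdown and was the most abundant of the list, measured 7.47 ± 0.02 and 7.36 ± 0.53 (limma, adjusted p = 0.727). Its value in adapted replicate 1, 6.76, was below every parental value. Those in adapted replicates 2 and 3, 7.74 and 7.59, were above every parental value. PYCR1, a mitochondrial enzyme of proline synthesis, had a log2 difference of 0.20 (95% interval -0.04 to 0.44, limma, adjusted p = 0.13). Of 6 genes linked to the fatty aldehydes that ALDH3A2 clears, 5 were tested and 2 rose. SGPL1, which releases a fatty aldehyde from sphingosine phosphate, changed by 0.76 (limma, adjusted p = 0.00153) and FAR2, which makes fatty alcohols, by 0.41 (limma, adjusted p = 0.0124). FAR2 lost its call without parental replicate 2 (adjusted p = 0.0528). Of 6 genes of lysine, betaine and carnitine metabolism, 2 were tested and TMLHE, the first enzyme of carnitine synthesis, was lower (log2 fold change -0.24, limma, adjusted p = 0.0454). This call was kept when adapted replicate 1 was left out and lost when any of the other 5 samples was (adjusted p from 0.0747 to 0.145). It was also lost without a filter (0.0683) and after rescaling without mitochondrially encoded genes (0.0777).

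Epithelial markers were high in all 6 samples. EPCAM lay between 7.30 and 7.62, CDH1 between 7.08 and 7.66 and EGFR between 9.02 and 9.09. Of the 7 markers on the list, all tested, KRT7 rose while KRT19, KRT18 and KRT8 fell. Over all rows tested, 56.9% were past the threshold in either direction. KRT8 was close to the threshold (limma, adjusted p = 0.0477), and its call was not followed under the alternatives. The summed FPKM of the list was 4022 to 4330 per sample. Of 5 leukocyte markers, PTPRC was at most 0.08 and CD3E was listed at 0 in every sample, while CD68, the most abundant of the list, fell from 6.25 ± 0.02 to 4.40 ± 0.50 (SD, n = 3 each, adjusted p = 3.63e-04 by limma). The list summed to between 74.5 and 76.9 FPKM in parental and between 14.8 and 29.8 in adapted samples. Of 5 fibroblast markers, COL1A1, the most abundant, rose from 2.02 ± 0.02 to 3.14 ± 0.16 (SD, n = 3 each, adjusted p = 7.8e-05 by limma), and DCN and PDGFRA were at most 0.11. LUM averaged 0.05 in parental and 0.61 in adapted cells without overlap. COL3A1 was at most 0.02 in parental cells and 1.37, 0.17 and 0.11 in adapted cells, highest in adapted replicate 1. That list summed to between 3.04 and 3.15 FPKM in parental and between 8.59 and 9.32 in adapted samples. None of the 4 endothelial markers passed the filter over the 6 samples. PECAM1 was the most abundant in parental cells and CDH5 in adapted cells. CDH5 averaged 0.21 in parental and 1.71 in adapted cells, PECAM1 averaged 1.22 and 0.09, and VWF and KDR were at most 0.34. Their sums were 1.13 to 1.88 FPKM in parental and 1.49 to 3.50 in adapted samples. The part of these markers in the aldehyde dehydrogenase changes was not tested.

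Some rows had patterns close to those of the members that changed most. By the distance between centred values over the 6 samples, among 11707 named rows, MTMR3, MYH14 and CGNL1 were nearest to ALDH3B1, at 0.0886, 0.0949 and 0.101 log2 units. MTMR3 is one of the rows with an added constant, 0.65 in its adapted values, and its distance was taken with the constant in place. The constant is larger than all 3 distances, so without it MTMR3 would lie farther from ALDH3B1 than MYH14 and CGNL1 do. Its distance without the constant was not computed. SNPH, PLK1 and UBE2C were nearest to ALDH2, at 0.478, 0.492 and 0.496. PLK1, a mitotic kinase, went from 5.65 to 3.87 on average and UBE2C, a ubiquitin carrier of mitotic exit, from 7.06 to 5.26. The distance includes the difference between the groups as well as the spread within them.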

How the data were processed

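The authors deposited 1 table of log2 values, 1 column per sample, without naming the unit. The submitters' processing notes name hg38, Bowtie2 2.1.0, STAR and edgeR without their roles, the study's methods name DESeq2, and the quantifier and annotation are not given in the sources used here. Taking away the log2 and a pseudocount of 1 gave values with 6 decimals in 27069 of 27216 rows (tolerance 0.002 of the last decimal), and from the column sums they were taken to be FPKM. In the other 147 rows, 1 group returned to this grid once a constant of 0.65, 0.66 or 0.2 was subtracted. No step worth 1 read was found among low values, so no count test was run.

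Rows with a mean of at least 1 were fitted with limma 3.58.1 in R 4.3.3 (lmFit, eBayes with an intensity trend), unpaired, two-sided, with Benjamini-Hochberg adjustment over all rows tested and a threshold of 0.05. The fit was checked on simulated data. Fold changes on the log2(FPKM + 1) scale understate the change of low genes. Members and lists were chosen with earlier results of these data known. All 10 members and the other superfamily genes are named, and of each further list up to 2 genes that rose and 2 that fell most without overlap. Any other gene was picked with its values in view. One gene that this rule names is not reported here. The 3 named rows nearest to the member that rose most and to the one that fell most are also given. Positions are from GENCODE 29 (GRCh38), the build of the notes. Alternatives were another pseudocount, other filters and scalings, other eBayes settings, a replicate block, leaving out each sample, and handling of the 147 rows and of rows named NewGene_.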

Additional observations from a re-analysis of the deposited data

How the results depend on the processing

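Each of the 8 members tested kept its direction and its side of the threshold under all 19 alternatives. For the 7 that changed, the adjusted p ranged from 1.31e-06 to 0.0376 (limma), the last for ALDH9A1. With a fold limit of 1 on the log2 scale in either direction there were 2 members higher (ALDH1A3 and ALDH3B1) and 1 lower (ALDH2), 1 other superfamily gene higher (ALDH6A1, whose log2 difference is 0.42 and under this limit with its added constant subtracted), 2 pathway genes higher and 3 lower, and 1328 rows (10.5%) over the table. A filter at a mean of 3 left 4532 rows past the threshold, since fewer rows were tested, and 0 of the other superfamily genes higher, since only ALDH16A1 of them was then tested. Without a filter 15 pathway genes were higher, against 8, since more genes were tested, while 7 were lower, against 9. ALDH16A1 changed sign to 0.050 without adapted replicate 3 (adjusted p = 0.727 by limma, range -0.25 to 0.050 with each sample left out in turn), and the cause was not tested. Rows past the threshold ranged from 5763 to 8370 over those fits, against 7202. After rescaling without the mitochondrially encoded genes 59.1% of calls were higher, against 54%, and the median of all rows moved from 0.03 to 0.07. Same-numbered parental and adapted samples did not deviate together (correlations of -0.051, -0.031 and -0.020). This gave no sign that the numbers pair the samples, but 3 samples per group are too few to exclude pairing. With the replicate block 6761 rows were past the threshold, with 4 members higher and 3 lower, and TMLHE lost its call (adjusted p = 0.0866 by limma). The unknown depth limits what can be said of ALDH1A1, ALDH3A1 and other genes near 0.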

Other observations

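ALDH3A1 belongs to the gene battery of the aryl hydrocarbon receptor, a sensor of aromatic compounds, and 9 genes of the receptor, its partner and its targets were looked at beside it. Of these, 7 were tested, 1 rose and 2 fell, beside 56.9% of all rows tested past the threshold in either direction. CYP1A1, which oxidises aromatic hydrocarbons, had values of 3.01, 3.11 and 3.01 in parental and 5.08, 5.40 and 5.04 in adapted cells, a log2 difference of 2.13 (SE 0.10, adjusted p = 7.91e-06 by limma). NQO1, a quinone reductase that also answers to oxidative stress, went from 6.51 ± 0.01 to 5.51 ± 0.41 (SD, n = 3 each, adjusted p = 0.00277 by limma), to 0.509 of the parental FPKM. Neither pair of groups overlapped. TIPARP changed by -0.36 (limma, adjusted p = 0.0351) and kept this call without adapted replicate 1 but lost it without any of the other 5 samples (adjusted p from 0.0723 to 0.107) and without a filter (0.0664). The receptor itself, AHR, had a log2 difference of -0.15 (95% interval -0.40 to 0.10, limma, adjusted p = 0.254).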
